A study of Mus musculus with 8 samples.

Results

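The 37 genes described here are all Lce (late cornified envelope) and Sprr (small proline-rich) genes in the deposited table of 26202 mouse genes, chosen by symbol: 21 Lce genes and 16 Sprr genes. RNA was measured in 8 libraries of primary epidermal cells cultured from newborn pups (P0 to P1) of the transgenic Dlx3 line. Cells of wild-type (Dlx3WT) and knockout (Dlx3KO) pups were transduced after a day in culture with an adenovirus carrying green fluorescent protein (AdGFP, the control) or the transcription factor Dlx3 (AdDlx3). The 4 groups were therefore wild-type AdGFP, wild-type AdDlx3, knockout AdGFP and knockout AdDlx3, with 2 libraries each, and every group, controls included, had received an adenovirus. The labels give the knockout by name only, and they do not describe its allele, any Cre driver, the strain or the time between transduction and harvest. The deposited sample sheet puts the first library of each group in batch A and the second in batch B, without saying what a batch is. Whether the libraries of a group came from separate pups or cultures is likewise unstated, so a p-value here measures only how far these samples spread, and that spread may be technical. Values are RPKM (reads per kilobase of gene, scaled to sequencing depth), and wherever a group has a pair of values, batch A is given first and batch B second.

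Lce and Sprr proteins are small substrates of transglutaminases. In the last steps of keratinocyte differentiation these enzymes cross-link them, with loricrin, involucrin and others, into the cornified envelope, the protein shell that replaces the plasma membrane of the dead surface cell. Sprr proteins act as short cross-bridges and are readily induced by stress and injury, whereas Lce genes are named for their late expression; in human skin the LCE3 group is linked to wounding and psoriasis. Dlx3 is a homeobox transcription factor of the suprabasal epidermis and hair follicle.

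The libraries held 73688944 to 124857742 alignments, and 11011 to 11594 genes reached 1 RPKM. Dlx3 was at 1.71 and 1.77 RPKM in wild-type AdGFP cells, 0.656 and 0.558 in knockout AdGFP cells, 237 and 782 in wild-type AdDlx3 cells and 402 and 539 in knockout AdDlx3 cells, the order that the labels call for. The basal keratins that define cultured keratinocytes were high under AdGFP, with Krt5 at 6223 to 9244 RPKM. Under AdDlx3 Krt5 was at 4261 and 3330.1 RPKM in batch A and at 221 and 299.8 in batch B, so the batches differed in more than the genes described here.

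All 37 genes lie on chromosome 3 (GRCm38/mm10, GENCODE M21 annotation) between positions 92215799 and 93019060. The Sprr genes occupy 92215799 to 92500493 and the Lce genes 92620081 to 93019060, with no member of one family inside the stretch of the other. Within the Sprr stretch the Sprr2 genes come first, followed by Sprr1b, Sprr3, Sprr1a and Sprr4. Close copies limit what each value can mean, because reads may be shared among them and no source used here says how the authors handled such reads. Of all 50-base stretches in the transcripts of Sprr2a1 and Sprr2a2, 96.3% and 96.5% occurred in another member as well, and these genes also overlap on the same strand. Their deposited values were identical in all 8 libraries, so they carry the information of 1 gene. Sprr2a3, the highest member, shared 61.1%, and its value was 7.74 to 9.07 times that of Sprr2a1 in every library. Among the Lce3 genes Lce3c to Lce3f shared 35.7% to 49.3%, so their separate values are uncertain. Sprr2g, Sprr2h, Sprr2j-ps, Sprr2k, Sprr1a, Sprr1b, Sprr3, Sprr4, Lce6a and Lce1m shared none. Sprr2g is annotated as a polymorphic pseudogene and Sprr2j-ps carries a pseudogene symbol, although GENCODE lists it as protein coding.

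Promoter sequence was found in the RefSeq table (build GRCm38.p6) for 34 of the 37 genes, and not for Lce1f, Sprr2g and Sprr2j-ps. The 210 bases before the annotated start are shown for 8 genes, on the coding strand from 5′ to 3′, because their RNA moved differently after AdDlx3 although some of these stretches resemble each other. Capitals mark the TATA-type words TATAAA and ATAAAA, the AP-1 word TGACTCA (or its reverse complement TGAGTCA) and the octamer ATTTGCAT, a word bound by POU factors. The first 3 belong to Sprr2 genes that were lower after AdDlx3 in each comparison of a library with its control, and the fourth to Sprr2f, which was higher. Their positions are chr3:92338930-92339139, chr3:92385475-92385684, chr3:92432372-92432581 and chr3:92364977-92365186, all on the plus strand.
Sprr2d: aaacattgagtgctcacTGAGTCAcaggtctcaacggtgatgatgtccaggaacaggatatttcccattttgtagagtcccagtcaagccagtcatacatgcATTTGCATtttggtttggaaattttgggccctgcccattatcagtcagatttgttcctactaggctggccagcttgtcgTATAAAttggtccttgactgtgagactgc
Sprr2h: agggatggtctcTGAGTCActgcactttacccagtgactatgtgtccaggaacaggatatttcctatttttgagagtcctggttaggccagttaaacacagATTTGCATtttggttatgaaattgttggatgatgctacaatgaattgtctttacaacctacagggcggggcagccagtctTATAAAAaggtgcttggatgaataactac
Sprr2k: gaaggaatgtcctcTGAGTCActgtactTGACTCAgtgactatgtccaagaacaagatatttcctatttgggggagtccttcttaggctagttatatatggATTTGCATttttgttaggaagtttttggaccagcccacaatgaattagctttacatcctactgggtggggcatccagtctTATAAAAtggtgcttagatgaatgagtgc
Sprr2f: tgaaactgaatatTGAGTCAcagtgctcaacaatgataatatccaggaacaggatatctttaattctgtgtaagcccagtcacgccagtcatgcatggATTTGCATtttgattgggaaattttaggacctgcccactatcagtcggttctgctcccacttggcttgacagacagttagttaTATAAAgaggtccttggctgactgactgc

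Sprr1b, a Sprr1 gene that was lower after AdDlx3, and 3 Lce genes are shown for contrast: Lce3c, the highest Lce gene, Lce1l, the Lce gene that rose over both genotypes without a batch term, and Lce1h, whose response differed most between batches among the Lce genes. They lie at chr3:92438780-92438989 (minus strand), chr3:92944276-92944485 (plus strand), chr3:92851287-92851496 (minus strand) and chr3:92765066-92765275 (minus strand).
Sprr1b: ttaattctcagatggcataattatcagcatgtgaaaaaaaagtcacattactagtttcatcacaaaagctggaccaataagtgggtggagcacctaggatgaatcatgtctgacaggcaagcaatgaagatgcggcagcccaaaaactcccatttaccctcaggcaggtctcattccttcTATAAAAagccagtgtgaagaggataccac
Lce3c: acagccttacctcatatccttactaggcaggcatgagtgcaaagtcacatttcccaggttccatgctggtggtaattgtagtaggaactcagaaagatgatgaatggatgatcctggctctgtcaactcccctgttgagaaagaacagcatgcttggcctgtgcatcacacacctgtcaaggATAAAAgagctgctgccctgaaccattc
Lce1l: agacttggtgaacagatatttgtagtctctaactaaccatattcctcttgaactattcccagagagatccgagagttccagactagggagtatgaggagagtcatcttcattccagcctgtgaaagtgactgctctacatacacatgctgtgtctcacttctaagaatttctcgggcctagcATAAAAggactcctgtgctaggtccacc
Lce1h: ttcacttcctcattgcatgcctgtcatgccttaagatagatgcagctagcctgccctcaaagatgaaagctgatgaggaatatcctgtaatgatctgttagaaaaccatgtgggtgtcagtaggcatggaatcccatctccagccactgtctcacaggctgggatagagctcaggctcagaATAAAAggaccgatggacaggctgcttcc

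In the 250 bases before the start, TATAAA on the coding strand was present in 10 of 14 Sprr genes and 2 of 20 Lce genes, against 7.59% of 32851 RefSeq promoters. ATAAAA, which can overlap it by 5 bases, was present in 18 of 20 Lce genes and 7 of 14 Sprr genes, against 10.2% of promoters. The AP-1 word, on either strand, was found in 8 of 14 Sprr genes and 0 of 20 Lce genes, against 4.46%. The octamer, on either strand, was found in 7 members and 1.60% of promoters. Those 7 were Sprr2b, Sprr2d, Sprr2e, Sprr2f, Sprr2h, Sprr2i and Sprr2k, which also held TATAAA starting 29 bases before the start, the octamer at 108 to 112 and an AP-1 word at 193 to 198. Over the 210 bases the Sprr2f sequence was 75.2% identical to Sprr2d, 77.1% to Sprr2e and 75.2% to Sprr2i, and 66.2% to Sprr2b, 65.2% to Sprr2k and 64.3% to Sprr2h. A match of letters is a description of the sequence and not evidence that a factor binds there. The homeobox words TAATTA and TAATTG, searched on both strands, were found in 1 and 5 of the 34 members and in 4.84% and 7.17% of promoters. The cyclic AMP response word TGACGTCA, which reads the same on both strands, was found in 0 members and 1.55% of promoters.

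Of the 37 genes, 31 passed the filter for testing (at least 1 RPKM in at least 2 libraries), 16 Lce and 15 Sprr genes. Lce1c, Lce1j, Lce1k, Lce1m, Lce3a and Sprr3 did not, and their highest value in any library was 1.27 RPKM, in Lce3a. Sprr3, an Sprr gene of esophagus and other internal epithelia, stayed at or below 0.103 RPKM. Sprr RNA exceeded Lce RNA in every library. The summed Sprr level was 291 to 1391 RPKM under AdGFP and 110 to 897 under AdDlx3, and the summed Lce level 53.8 to 72.6 and 43.9 to 100.2. Sprr2a3, Sprr1a, Sprr2h and Sprr1b had the highest means over the 8 libraries, at 217, 130, 63.7 and 62.6 RPKM. Lce3c and Lce3d, at 20.3 and 18.7, stood above all other Lce genes, of which the next, Lce1a1, averaged 4.02 RPKM. Lce3d and Lce1a1 did not overlap in any library, whereas the other neighbours in these orders differed by less than their range over libraries. Batch A exceeded batch B in each of the 4 groups for 18 of the 31 tested members, against 27.7% of all genes tested. Among the 18 were all 5 tested Lce3 genes, both Sprr1 genes and 10 of 12 Sprr2 genes. Lce3b and Lce1a2, also among them, passed the filter only through batch A libraries. Their place in this count describes genes kept for those high values.

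**Figure D1:**
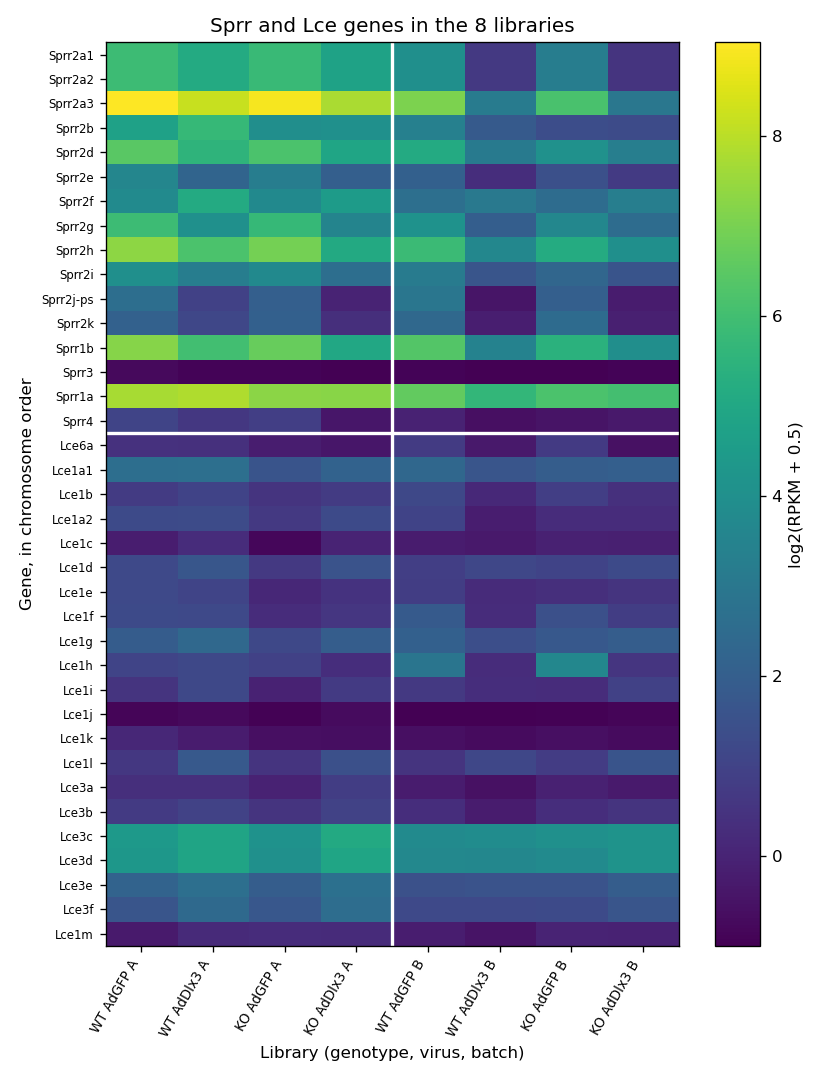
Level of each of the 37 genes, as log2(RPKM + 0.5) in colour, with genes in chromosome order (Sprr above the horizontal white line, Lce below) and the 4 libraries of batch A left of the vertical line. Sprr2a3, Sprr1a, Sprr2h and Sprr1b stand out in batch A, and Lce3c and Lce3d among the Lce genes.

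The first question was how these genes differed between AdDlx3 and AdGFP over both genotypes (4 libraries of each virus). The Sprr2 genes were mostly lower: 10 of the 12 were below the control in each of the 4 matched pairs, a pair being the AdDlx3 and AdGFP libraries of the same genotype and batch. Sprr2f went the other way in all 4 pairs, and Lce1l was higher in every AdDlx3 library than in any AdGFP library. By limma with Benjamini-Hochberg adjustment over all 12090 genes tested, at a threshold of 0.05, 1 of the 31 members rose (Lce1l) where 23.4% of all genes rose. At the same threshold 3 members fell (Sprr1b, Sprr2j-ps and Sprr2k) where 5.74% of all genes fell.

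With batch as a block in the same fit, 5 members rose (Lce1d, Lce1l, Lce3e, Lce3f and Sprr2f; 38.0% of all genes) and 12 fell (Lce1h, Sprr1b and 10 Sprr2 genes; 10.9% of all genes). The share that fell was thus higher among the Sprr2 genes than among all genes, while the share of members that rose was below that of all genes. In these and all other counts of members, Sprr2a1 and Sprr2a2, with identical values, are counted separately, and Sprr2a3 shares sequence with them. The falling Sprr2 genes are therefore fewer separate measurements than their count. The median log2 change was -1.70 over the 12 Sprr2 genes and 0.42 over the 5 Lce3 genes, beside 0.22 over all genes tested. That median of 0.22 is a shift of the whole table, which median-of-ratios scaling brought to 0.03, so a change is best read relative to it. The same scaling turned the 23.4% higher and 5.74% lower among all genes into 11.5% and 9.35%. With scaling and block together, Lce1d, Lce3e and Lce3f were no longer called. In bulk RNA, fewer cells of a type and less RNA per cell cannot be told apart.

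**Figure D2:**
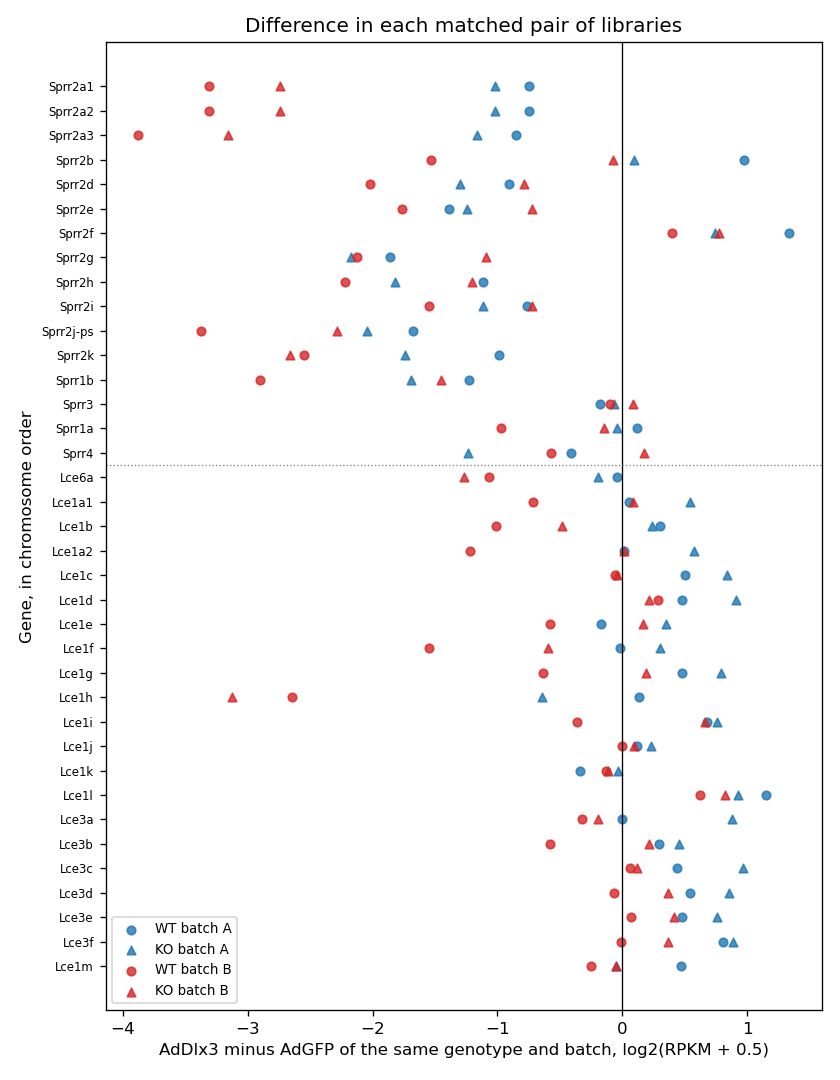
Difference between AdDlx3 and AdGFP for each of the 37 genes in the 4 matched pairs, on the log2(RPKM + 0.5) scale, with genes in chromosome order, circles for wild type, triangles for knockout, blue for batch A and red for batch B. All Sprr2 genes except Sprr2b and Sprr2f lie left of 0 in every pair, and Sprr2f and Lce1l lie right of 0 in every pair.

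Sprr2j-ps and Sprr2k, neighbours at the end of the Sprr2 row, separated the viruses most fully. Sprr2j-ps was at 5.63 and 7.23 RPKM in wild-type AdGFP cells, 3.64 and 3.67 in knockout AdGFP cells, 1.41 and 0.243 in wild-type AdDlx3 cells and 0.5 and 0.354 in knockout AdDlx3 cells. All AdDlx3 libraries lay below all AdGFP libraries, and the difference was a log2 change of -2.35 ± 0.28 (SE; limma adjusted p = 0.00154). Sprr2k was at 3.83 and 4.74 (wild-type AdGFP), 3.74 and 5.27 (knockout AdGFP), 1.68 and 0.394 (wild-type AdDlx3) and 0.768 and 0.411 RPKM (knockout AdDlx3). Here too the groups did not overlap, with a log2 change of -1.99 ± 0.29 (limma adjusted p = 0.00316). These were the 2 of 31 members with every AdDlx3 library below every AdGFP library, a pattern shown by 6.27% of all genes tested. Each reached 1 RPKM in 4 AdGFP libraries and in 1 AdDlx3 library, so both passed the filter only through AdGFP, where they were high. Their pattern and calls are thus descriptions of genes kept for those values. With no filter on low values both were still called over both genotypes. Both kept their call without any 1 library.

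Sprr2a3, the most abundant member, was at 528 and 132 RPKM in wild-type AdGFP cells, 484 and 70.7 in knockout AdGFP cells, 293 and 8.49 in wild-type AdDlx3 cells and 216 and 7.46 in knockout AdDlx3 cells. Within each batch both AdDlx3 libraries lay below both AdGFP libraries, and by more in batch B. The AdDlx3 libraries of batch A were still above the AdGFP libraries of batch B. The log2 change was -2.26 ± 1.37 (limma adjusted p = 0.239) without the block and -2.26 ± 0.46 (limma adjusted p = 0.00494) with it. Sprr2a1, identical to Sprr2a2, was at 58.2 and 15.4 (wild-type AdGFP), 54.9 and 9.13 (knockout AdGFP), 34.4 and 1.10 (wild-type AdDlx3) and 26.8 and 0.940 RPKM (knockout AdDlx3). Its pattern over libraries followed that of Sprr2a3, with a log2 change of -1.96 ± 0.40 under the block (limma adjusted p = 0.00474).

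Sprr2h was at 159 and 57.5 RPKM in wild-type AdGFP cells, 122 and 36.0 in knockout AdGFP cells, 73.3 and 11.9 in wild-type AdDlx3 cells and 34.1 and 15.3 in knockout AdDlx3 cells. In each batch both AdDlx3 libraries lay below both AdGFP libraries, and the log2 change was -1.59, with limma adjusted p = 0.097 without and 6.66e-04 with the block. Sprr2d was at 87.6 and 34.8 (wild-type AdGFP), 74.0 and 16.4 (knockout AdGFP), 46.4 and 8.19 (wild-type AdDlx3) and 29.7 and 9.33 RPKM (knockout AdDlx3). Sprr2g, the polymorphic pseudogene, was at 58.5 and 17.1 (wild-type AdGFP), 52.5 and 12.0 (knockout AdGFP), 15.8 and 3.54 (wild-type AdDlx3) and 11.2 and 5.38 RPKM (knockout AdDlx3). Both were lower with AdDlx3 in each pair, with log2 changes of -1.25 and -1.81 (limma adjusted p = 0.00124 and 2.43e-04 with the block).

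Sprr2e and Sprr2i, lower in abundance, gave the same order in each pair. Sprr2e was at 11.7 and 3.73 (wild-type AdGFP), 9.14 and 2.23 (knockout AdGFP), 4.16 and 0.746 (wild-type AdDlx3) and 3.57 and 1.15 RPKM (knockout AdDlx3). Sprr2i was at 15.6 and 8.65 (wild-type AdGFP), 13.1 and 4.50 (knockout AdGFP), 8.98 and 2.62 (wild-type AdDlx3) and 5.77 and 2.53 RPKM (knockout AdDlx3). Their log2 changes were -1.28 and -1.04 (limma adjusted p = 6.17e-04 and 9.30e-04 with the block, 0.142 and 0.122 without).

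Sprr2f lies between Sprr2e and Sprr2g on the chromosome and was the only Sprr2 gene higher with AdDlx3 in all 4 pairs. It was at 13.6 and 5.84 RPKM in wild-type AdGFP cells, 13.3 and 5.32 in knockout AdGFP cells, 35.1 and 7.83 in wild-type AdDlx3 cells and 22.5 and 9.45 in knockout AdDlx3 cells. It rose within each batch (limma adjusted p = 0.00169 in batch A and 0.0219 in batch B; scaling made the latter 0.0895), from a batch B level that was below batch A in every group. The log2 change was 0.81 ± 0.16 with the block (limma adjusted p = 0.00434), where 46.5% of all genes tested were higher in each pair, and 0.81 ± 0.53 without it (adjusted p = 0.274). In all, 5 of the 31 members were higher in each pair (Lce1d, Lce1l, Lce3c, Lce3e and Sprr2f). By contrast 12 were lower in each pair (Lce6a, Sprr1b and 10 Sprr2 genes), against 13.2% of all genes tested.

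Sprr2b had no common direction. It was at 26.4 and 9.78 RPKM in wild-type AdGFP cells, 14.97 and 2.08 in knockout AdGFP cells, 52.2 and 3.05 in wild-type AdDlx3 cells and 16.0 and 1.96 in knockout AdDlx3 cells. The wild-type pair of batch A was higher with AdDlx3, and the wild-type pair of batch B was lower. Over both genotypes its log2 change was -0.13 ± 0.99 (limma adjusted p = 0.929).

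**Figure D3:**
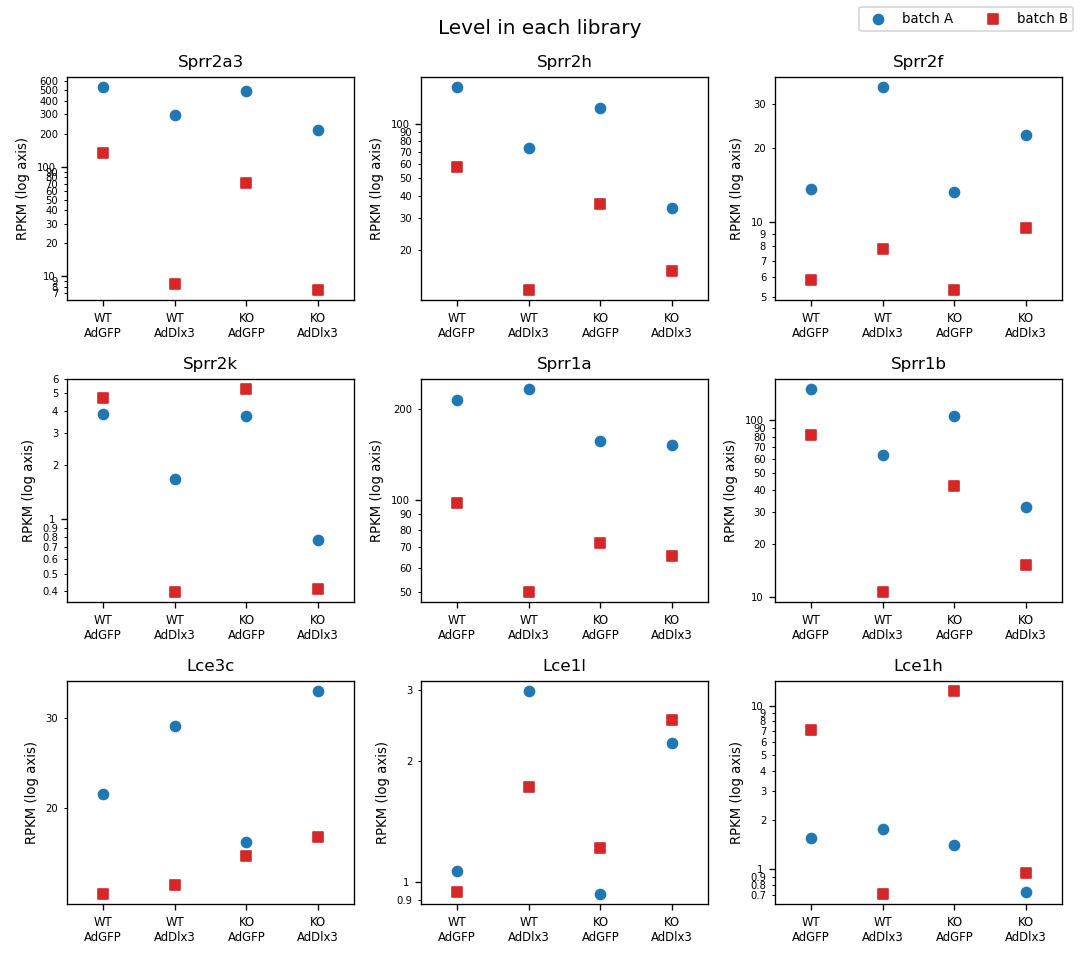
RPKM on log axes for 9 genes in each library, by group, with batch A as blue circles and batch B as red squares. Sprr2a3, Sprr2h and Sprr1b are lower with AdDlx3 within each batch, Sprr2f is higher, Sprr1a differs little in batch A, and Lce1h is high in the AdGFP libraries of batch B.

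The Sprr1 genes encode abundant cross-linked precursors that stress induces in keratinocytes. Sprr1b was at 149 and 82.4 RPKM in wild-type AdGFP cells, 106 and 42.2 in knockout AdGFP cells, 63.5 and 10.6 in wild-type AdDlx3 cells and 32.4 and 15.1 in knockout AdDlx3 cells. Every AdDlx3 library was below its own control, and the log2 change was -1.82 ± 0.57 (limma adjusted p = 0.046) without and -1.82 ± 0.26 (adjusted p = 9.79e-04) with the block. The call without the block ended, at adjusted p = 0.0754 to 0.119, when either wild-type AdGFP library, the batch B library of either AdDlx3 group or the batch A library of knockout AdGFP was left out, and at 0.102 with no filter on low values. Sprr1a was at 213 and 97.9 RPKM in wild-type AdGFP cells, 156 and 72.5 in knockout AdGFP cells, 232 and 49.8 in wild-type AdDlx3 cells and 152 and 65.3 in knockout AdDlx3 cells. Its AdDlx3 and AdGFP libraries overlapped in both genotypes, with a log2 change of -0.26 ± 0.53 (limma adjusted p = 0.735). Sprr4, whose human counterpart responds to ultraviolet light, was at 1.57 and 0.485 (wild-type AdGFP), 1.30 and 0.219 (knockout AdGFP), 1.06 and 0.164 (wild-type AdDlx3) and 0.265 and 0.309 RPKM (knockout AdDlx3). These low values gave -0.51 ± 0.40 (limma adjusted p = 0.357).

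Genes of the Lce1 group, whose human counterparts are expressed mainly in skin, were low in these cultures. Lce1l was at 1.06 and 0.943 RPKM in wild-type AdGFP cells, 0.932 and 1.22 in knockout AdGFP cells, 2.98 and 1.72 in wild-type AdDlx3 cells and 2.22 and 2.53 in knockout AdDlx3 cells. All 4 AdDlx3 libraries lay above all 4 AdGFP libraries, which held for 29.6% of all genes tested and for no other member. The log2 change was 0.88 ± 0.18 (limma adjusted p = 0.00932) and 0.72 ± 0.17 (adjusted p = 0.021) with median-of-ratios scaling. Lce1h was at 1.56 and 7.05 RPKM in wild-type AdGFP cells, 1.41 and 12.2 in knockout AdGFP cells, 1.76 and 0.706 in wild-type AdDlx3 cells and 0.727 and 0.952 in knockout AdDlx3 cells. Its high values were those of the batch B AdGFP libraries, and the log2 change was -1.57 ± 0.63 (limma adjusted p = 0.0933) without and -1.57 ± 0.52 (adjusted p = 0.0357) with the block. At least 1 RPKM was reached in 4 AdGFP libraries and 1 AdDlx3 library, so Lce1h passed the filter only through AdGFP.

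The other Lce1 genes gave no call over both genotypes without the block. Lce1a1, the highest, was at 5.61 and 4.62 (wild-type AdGFP), 2.53 and 3.39 (knockout AdGFP), 5.85 and 2.62 (wild-type AdDlx3) and 3.91 and 3.62 RPKM (knockout AdDlx3). Lce1g was at 3.28 and 3.68 (wild-type AdGFP), 1.79 and 2.94 (knockout AdGFP), 4.77 and 2.19 (wild-type AdDlx3) and 3.45 and 3.42 RPKM (knockout AdDlx3). For both, the virus groups overlapped, with log2 changes of -0.01 ± 0.25 and 0.21 ± 0.25. Lce1d was at 1.83 and 1.30 (wild-type AdGFP), 1.09 and 1.53 (knockout AdGFP), 2.74 and 1.69 (wild-type AdDlx3) and 2.50 and 1.86 RPKM (knockout AdDlx3). It was higher with AdDlx3 in each pair, with a log2 change of 0.47 (limma adjusted p = 0.098 without and 0.0404 with the block, 0.255 with scaling). Lce1f was at 1.87 and 3.07 (wild-type AdGFP), 0.712 and 2.21 (knockout AdGFP), 1.83 and 0.721 (wild-type AdDlx3) and 0.995 and 1.29 RPKM (knockout AdDlx3). Lce1i was at 0.909 and 1.10 (wild-type AdGFP), 0.479 and 0.707 (knockout AdGFP), 1.76 and 0.749 (wild-type AdDlx3) and 1.15 and 1.41 RPKM (knockout AdDlx3). Their virus groups overlapped as well. The log2 changes of Lce1a2, Lce1b, Lce1e, Lce1f and Lce1i lay between -0.46 and 0.43.

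The Lce3 genes had smaller differences than most Sprr2 genes, and with the opposite sign. Lce3c was at 21.3 and 13.5 RPKM in wild-type AdGFP cells, 17.1 and 16.1 in knockout AdGFP cells, 29.0 and 14.1 in wild-type AdDlx3 cells and 33.9 and 17.5 in knockout AdDlx3 cells. Lce3d was at 19.6 and 12.5 (wild-type AdGFP), 16.2 and 13.3 (knockout AdGFP), 28.7 and 12.0 (wild-type AdDlx3) and 29.6 and 17.3 RPKM (knockout AdDlx3). In batch A both AdDlx3 libraries exceeded both AdGFP libraries, whereas in batch B the viruses overlapped for each gene. Lce3e was at 4.08 and 2.34 (wild-type AdGFP), 3.40 and 2.44 (knockout AdGFP), 5.89 and 2.48 (wild-type AdDlx3) and 6.10 and 3.42 RPKM (knockout AdDlx3). Lce3f was at 2.62 and 1.84 (wild-type AdGFP), 2.79 and 1.92 (knockout AdGFP), 4.97 and 1.82 (wild-type AdDlx3) and 5.57 and 2.62 RPKM (knockout AdDlx3). Their log2 changes over both genotypes were 0.40 and 0.42 for Lce3c and Lce3d, and 0.43 and 0.51 for Lce3e and Lce3f. The last pair were called with the block (limma adjusted p = 0.0315 and 0.0284) and not without it (0.302 and 0.252). Lce3b was at 1.12 and 0.757 (wild-type AdGFP), 0.925 and 0.739 (knockout AdGFP), 1.496 and 0.342 (wild-type AdDlx3) and 1.45 and 0.941 RPKM (knockout AdDlx3), and its log2 change of 0.10 ± 0.29 turned to -0.04 with scaling.

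Lce6a, the single Lce6 gene, was at 0.866 and 1.19 RPKM in wild-type AdGFP cells, 0.380 and 1.14 in knockout AdGFP cells, 0.824 and 0.303 in wild-type AdDlx3 cells and 0.271 and 0.181 in knockout AdDlx3 cells. It passed the filter only through its AdGFP libraries, of which those of batch B were the high ones. Its log2 change was -0.64 ± 0.26 (limma adjusted p = 0.0933).

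Contrasted within each genotype (2 libraries against 2, with the spread taken from all 4 groups), fewer members were called. In wild-type cells Sprr2j-ps fell by 2.53 ± 0.43 on the log2 scale (limma adjusted p = 0.037), the 1 member called, where 0.356% of all genes fell. That call ended when any library other than that of wild-type AdDlx3 in batch A was left out. In knockout cells Sprr2j-ps and Sprr2k fell, with log2 changes of -2.17 ± 0.43 and -2.203 ± 0.44 (limma adjusted p = 0.040 and 0.0409), where 0.893% of all genes fell. Neither was called when any library of the groups other than wild-type AdDlx3 was left out.

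With the block, Lce1l and Sprr2f rose in wild-type cells (16.6% of all genes) and 8 members fell (5.41% of all genes): Sprr1b, Sprr2d, Sprr2e, Sprr2g, Sprr2h, Sprr2i, Sprr2j-ps and Sprr2k. In knockout cells Lce1l rose (18.9% of all genes) and 8 members, with those names, fell (5.67% of all genes). The groups contrasted share no library, but both contrasts come from the same fit, with a common spread and batch term. The lists of the genotypes are therefore not independent. The response itself was not found to differ between genotypes. By limma the difference gave 0 members at the threshold (0% of all genes) and 0 at an unadjusted p under 0.05, where 40 of all genes had one. The median difference over the 31 members was 0.29 on the log2 scale, knockout response minus wild-type response, beside 0.02 over all genes tested.

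The response to AdDlx3 was next compared between batches, in a model with genotype, virus and the product of virus and batch, which gives each batch 2 libraries of each virus. In batch A, 8 members rose (Lce1d, Lce1i, Lce1l, Lce3c, Lce3d, Lce3e, Lce3f and Sprr2f; 36.6% of all genes) and 12 fell, all Sprr genes (8.55% of all genes). In batch B, Lce1l and Sprr2f rose (37.1% of all genes) and 17 members fell (16.1% of all genes), of which 13 were Sprr genes and 4 were Lce1b, Lce1f, Lce1h and Lce6a. With scaling, 4 members rose and 12 fell in batch A (17.7% and 14.9% of all genes), and 1 rose and 18 fell in batch B (26.2% and 22.6% of all genes). Sprr1b and 10 Sprr2 genes fell in both batches. The share of all genes that did so was not computed, but cannot exceed the 8.55% of batch A. Sprr4 fell in batch A, at -0.82 ± 0.26 (limma adjusted p = 0.0274). Sprr1a and Sprr2b fell in batch B, at -0.56 ± 0.20 and -0.80 ± 0.30 (limma adjusted p = 0.042 and 0.044). Sprr4, Sprr2j-ps, Sprr2k, Lce1h and Lce6a passed the filter only through AdGFP libraries, and Lce1i only through AdDlx3 libraries. Their calls here describe genes kept for those high values.

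The difference between batches itself was called for 7 members, all with the more negative response in batch B, where 8.56% of all genes were called in that direction. Sprr2a3 changed by -1.01 ± 0.17 in batch A and by -3.52 ± 0.17 in batch B, a difference of -2.51 ± 0.24 (limma adjusted p = 7.85e-04). Sprr2a1 and Sprr2a2 each changed by -0.88 and -3.03, and Sprr2k by -1.37 and -2.61. Among the Lce genes, Lce1h had a log2 change of -0.25 ± 0.30 in batch A, short of the threshold, and of -2.89 ± 0.30 in batch B (limma adjusted p for the difference = 0.00558). Lce6a was called too, but it had passed the filter only through the AdGFP libraries of batch B, so its batch B fall and this difference are descriptions of a gene kept for those high values. Lce1b, the other member called, was at 1.17 and 1.73 (wild-type AdGFP), 0.932 and 1.34 (knockout AdGFP), 1.56 and 0.606 (wild-type AdDlx3) and 1.19 and 0.817 RPKM (knockout AdDlx3). Without the batch B library of knockout AdDlx3 the count was 15 members. It was 4 without the batch B library of wild-type AdDlx3 and 4 without the batch A library of knockout AdGFP.

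Sprr2g, Sprr2h, Sprr2d, Sprr2e and Sprr2i had responses in the batches that differed by -0.30 to 0.41, with SE of 0.26 to 0.37. The batches also differed in Dlx3 itself, at 237 and 402 RPKM under AdDlx3 in batch A against 782 and 539 in batch B. The summed basal keratinocyte markers (6 genes, Krt5 and Krt14 among them) were 6659.5 to 8227 RPKM in the AdDlx3 libraries of batch A, against 829 to 1085 for those of batch B. The part of these levels in the difference was not tested.

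**Figure D4:**
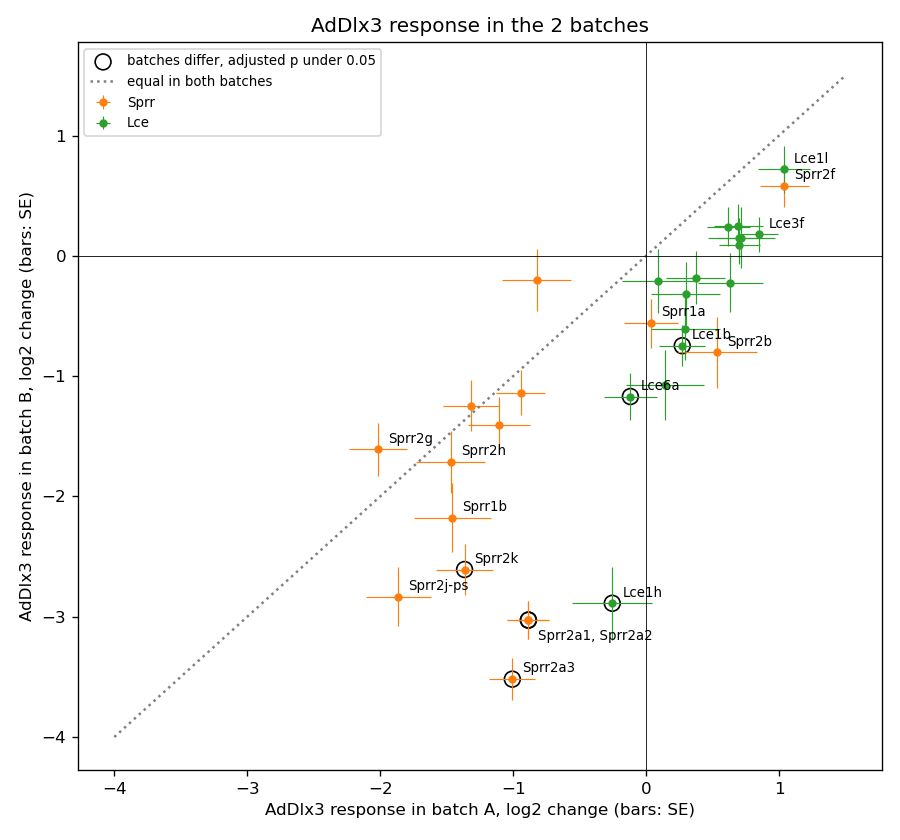
Log2 change with AdDlx3 in batch A (horizontal) and batch B (vertical) for the 31 tested genes, with SE bars from limma, Sprr in orange and Lce in green; the dotted line marks equal responses. The circled genes, whose batches differ at an adjusted p under 0.05, all lie below the line, and Sprr2a3 is the lowest at -3.52 in batch B.

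Loss of Dlx3 alone was read from knockout against wild-type cells with the control virus. By limma 0 of the 31 members were called (0% of all genes), and 0 had an unadjusted p under 0.05, where 121 of all genes had one. Over both viruses the counts were 0 members at the threshold (0% of all genes) and 0 members unadjusted, with 194 genes unadjusted. With the block 0 members were called in either comparison (0% of all genes). At an unadjusted p under 0.05 the block gave 5 members under AdGFP (Lce1e, Sprr2b, Sprr2d, Sprr2e and Sprr2i), against 456 of all genes. Over both viruses it gave 3 (Sprr2b, Sprr2d and Sprr2i), against 531 of all genes. All of these members were lower in knockout cells. Lce1e passed the filter only through wild-type libraries, so its lower value in knockout cells describes a gene kept for those high values. Under AdGFP the median log2 difference, knockout minus wild type, was -0.40 over the 31 members and -0.005 over all genes tested. Over both viruses the medians were -0.22 and 5.16e-04. Close copies are counted separately in these medians, and with 0 calls they describe these libraries only. Sprr2b had the most negative estimate under AdGFP, -1.39 ± 1.52 (limma adjusted p = 1) without and -1.39 ± 0.50 (adjusted p = 0.969) with the block. As its values above show, Sprr2b was lower in knockout in all 4 pairs of knockout and wild-type libraries of the same virus and batch. Sprr2a1, Sprr2a2, Sprr2a3, Sprr2i and Lce6a had this pattern too, so it is not particular to Sprr2b. The share of all genes with it was not computed. Standard errors among the Sprr2 genes under AdGFP ran from 0.43 to 2.09 without the block and from 0.19 to 0.72 with it.

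Other genes linked to the cornified envelope were taken as a list of 37, of which 31 were tested. It held envelope proteins, but also enzymes such as Tgm1, Casp14, Klk5 and Klk7, which are among those that fell. The transcription factor gene Elf3 was in it and in the list of regulators below. With AdDlx3 over both genotypes, 5 rose and 10 fell by limma, where 23.4% and 5.74% of all genes did. With the block 7 rose and 19 fell (38.0% and 10.9% of all genes), and with scaling 5 and 11 (11.5% and 9.35%). The share of listed genes that rose was below that of all genes without the block and with it, but above that of all genes with scaling. Loricrin (Lor), the main protein of the mouse envelope, was at 9.65 and 6.45 RPKM in wild-type AdGFP cells, 3.38 and 3.95 in knockout AdGFP cells, 63.5 and 34.1 in wild-type AdDlx3 cells and 35.1 and 31.5 in knockout AdDlx3 cells. Its groups did not overlap, with a log2 change of 2.75 ± 0.23 (limma adjusted p = 3.81e-04). The fused S100 proteins trichohyalin (Tchh) and cornulin (Crnn) rose by 2.59 ± 0.26 and 3.35 ± 0.46, and the keratin gene Krt80 fell by 2.04 ± 0.35. Crnn was at 0.0615 to 0.163 RPKM under AdGFP and 2.13 to 12.9 under AdDlx3. It passed the filter only through its AdDlx3 libraries, as did Flg2, another listed gene that rose, and Hrnr, which rose with the block. Ivl, which fell, passed only through its AdGFP libraries. The calls of these genes are therefore descriptions of genes kept for those high values. Lor, Tchh and Crnn lie in the same epidermal differentiation complex as Sprr2j-ps and Sprr2k, which fell in the same comparison.

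Of 45 transcription factors and signalling genes listed as regulators of envelope genes, 44 were tested, and 6 rose and 15 fell (23.4% and 5.74% of all genes). With the block 8 rose and 21 fell (38.0% and 10.9%), and with scaling 4 and 18 (11.5% and 9.35%), so that the share that rose was below that of all genes each time. Satb1, a chromatin organiser that acts on this locus in mouse epidermis, rose by 1.41 ± 0.18, and the zinc finger gene Casz1 by 1.34 ± 0.18. Keap1, which restrains the stress factor Nrf2, rose by 0.64 ± 0.10, and Prdm1, a transcriptional repressor gene active in late keratinocyte differentiation, fell by 1.34 ± 0.21 (limma adjusted p = 0.00195 to 0.00387 for these 4). The POU genes of the list were singled out after their values were seen, because the octamer recurs in the Sprr2 promoters. Pou3f1 fell by 2.58 ± 0.63 (limma adjusted p = 0.0198), and Pou2f3 had a log2 change of -2.33 ± 0.87 (adjusted p = 0.0778 without and 6.49e-04 with the block). The part of these genes in the Lce and Sprr levels was not tested.

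Cell type markers were read over both genotypes as well. Of 6 basal markers tested, 1 rose and 1 fell; under the block the counts were 1 and 4, Krt5 and Krt14 being among those that fell. Among the 5 spinous markers 0 were called without the block, and with it 1 rose (Krt10) and 3 fell (Krt1, Krtdap and Dsc1). The granular list held 6 markers, of which Flg (filaggrin) was not among the deposited genes. Of the 5 tested, 1 rose (Lor) and 2 fell (Ivl and Casp14), with 2 and 2 under the block. Ivl passed the filter only through its AdGFP libraries, and Hrnr, the other that rose under the block, only through its AdDlx3 libraries. Their calls describe genes kept for those high values. The shares of all genes stand beside the envelope list above. The summed spinous markers were 172 to 1026 RPKM under AdGFP and 52.2 to 516 under AdDlx3, and Krtdap made up most of this sum in every library. The granular sum was 9.73 to 24.3 and 33.9 to 83.9. Lor made up most of it in every AdDlx3 library, at 63.5 of 83.9 RPKM (wild type, batch A) and 34.1 of 36.0 (wild type, batch B). The higher granular sum is therefore a reading of Lor and not of the granular markers as a set. Markers of other cell types were present in all libraries: fibroblast markers summed to 7.76 to 23.4 RPKM under AdGFP and 9.96 to 40.4 under AdDlx3 (of 4 tested 1 rose, 2 rose and 2 fell with the block, and 0 were called with scaling), and melanocyte markers to 220.1 to 379 and 163 to 411 (0 of 6 called, 0 with the block, and 1, Mlana, lower with scaling). Immune markers summed to 0.540 to 2.08 and 1.38 to 2.46 RPKM (1 of 2 rose, also with the block, and 0 with scaling), and endothelial markers to 2.88 to 5.77 and 4.59 to 7.64 (1 rose and 1 fell of 2, also with the block, and 1 fell with scaling). Cd74, the immune marker that rose, passed the filter only through its AdDlx3 libraries. Kdr, the endothelial marker that fell, passed only through AdGFP libraries. These calls, too, describe genes kept for those high values. No listed marker with deposited values was at 0 in all libraries. The part of other cell types in the Sprr and Lce differences was not tested.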

How the data were processed

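RNA of 8 libraries was analysed as deposited. The submitters' processing notes name TopHat2 2.1.1, Partek and bcl2fastq 2.20.0.422, with mm10 as the build. How reads were counted, and whether strand was used, is not given in the sources, so reads of overlapping genes cannot be assigned with certainty. The authors deposited RPKM values per gene and, in the sample sheets, the count of alignments and the batch of each library. No count test was run, because 2827 deposited RPKM values above 0 lay below 1e-04, far under any whole read. In the shallowest library 1 RPKM corresponds to 17.0 to 221 alignments over these genes, by transcript length.

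The analysis scale was log2(RPKM + 0.5). Of 26202 genes, 12090 reached 1 RPKM in 2 or more libraries and were tested; 2937 were at 0 everywhere. Fits used limma 3.58.1 (R 4.3.3) on all libraries, with variances moderated along an intensity trend: genotype plus virus (5 residual degrees of freedom), 4 groups (4) and genotype plus virus by batch (3). Benjamini-Hochberg adjustment ran over all genes tested, with a threshold of 0.05. Every error of a log2 change is a standard error, and this scale understates changes of low genes. Same-numbered libraries share a batch in the deposited sample sheet, and their deviations from group means correlated at 0.351 to 0.876 between groups over 12090 genes, so the numbers pair the libraries. The block used that number.

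Members and lists were chosen with earlier results of these data known. Values in every library are given for Lce6a, Sprr4, members called in any fitted comparison and the 5 highest of each subfamily group. Of the other lists, the 4 genes with the smallest adjusted p are named. POU genes, some markers and some other listed genes were named after their values were seen. Alternatives were pseudocounts of 0.1 and 1, no filter, median-of-ratios scaling, no intensity trend, the replicate block and leaving out each library; within-batch contrasts and the block with scaling were added after seeing the data. Sequence words and identities were computed in Python 3.11.15 with edlib 1.3.9.post1. The authors' table of their own comparisons was not used here.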

Additional observations from a re-analysis of the deposited data

Results flagged for a closer look

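The difference in the response to AdDlx3 between batches, batch B minus batch A on the log2 scale, passed the threshold (limma adjusted p under 0.05) for 7 members, and this is why they are listed. It was -2.51 for Sprr2a3, the most abundant member, and -2.14 for each of Sprr2a1 and Sprr2a2, whose deposited values are identical and count as 1. It was -1.24 for Sprr2k, whose response was negative in both batches. Among the Lce genes it was -2.63 for Lce1h, -1.05 for Lce6a and -1.02 for Lce1b, which had log2 changes of -0.25, -0.12 and 0.27 in batch A and of -2.89, -1.17 and -0.75 in batch B. For Lce1h and Lce6a the AdGFP libraries of batch B were the high ones, and Lce6a passed the filter on low values only through them, so its value supports nothing further. Lce1h and Sprr2k passed that filter only through their AdGFP libraries. The median difference between batches was -0.61 over the 31 members tested and -0.07 over all genes tested.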

How the results depend on the processing

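With AdDlx3 over both genotypes, 4 members were called. The count was 17 with the replicate block, 15 when median-of-ratios scaling joined the block (added after seeing the data), 20 within batch A and 19 within batch B, and 3 to 6 without 1 library. In wild-type cells it was 1, and 0 with a pseudocount of 0.1 or no filter, 10 with the replicate block, 8 with block and scaling, and 0 to 2 without 1 library. In knockout cells it was 2, and 0 with that pseudocount or no filter, 9 with the replicate block, 8 with block and scaling, and 0 to 2 without 1 library. The batch difference, called for 7 members, gave 2 with no filter and 4 to 15 without 1 library. Counts for genotype and for the difference between genotypes were 0 under every alternative run, the replicate block included. Leaving out a library leaves 1 sample in its group, which is assumed to vary like the other groups.

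Directions turned for members near 0: Lce3b was at -0.038 with scaling and with block and scaling, and without 1 library the log2 changes ranged from -0.15 to 0.26 for Lce1a1, from -0.44 to 0.23 for Lce1a2, from -0.17 to 0.17 for Lce1e, from -0.10 to 0.39 for Lce3b, from -0.67 to 0.21 for Sprr1a and from -0.88 to 0.67 for Sprr2b. Of the values for single members under all alternatives, 413 kept direction and side of the threshold, 29 passed it anew, 6 (all Sprr1b) lost it and 15 changed sign. The cause of these shifts was not tested. RPKM values of close copies and of genes near 1 RPKM limit the precision of single members.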
